A study of Mus musculus with 48 samples.

Results

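Transcripts of the adenosine receptors, and of the enzymes and transporters that set adenosine levels around cells, were followed in the cortex and hippocampus of APP/PS1 mice and WT littermates. The set held 10 genes, namely the receptors Adora1, Adora2a, Adora2b and Adora3, the ectoenzymes Entpd1 and Nt5e, the transporters Slc29a1 and Slc29a2, and the enzymes Adk and Ada. They were chosen by name, through the RefSeq gene symbol of each probe's accession, and a gene's membership depends on no threshold on its values. They had 14 probes, out of 56605 probes and 22907 named genes on the array.

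Adenosine is released by cells and is also formed outside them from ATP, which ENTPD1 (CD39) degrades to AMP and NT5E (CD73) degrades to adenosine. It acts on G protein-coupled receptors, of which those of Adora1 and Adora3 lower cAMP through Gi while those of Adora2a and Adora2b raise it through Gs. Equilibrative transporters carry adenosine across the membrane, and inside the cell it is phosphorylated by adenosine kinase (Adk) or deaminated by adenosine deaminase (Ada). In the brain, Adora1 is widely expressed by neurons, Adora2a is most abundant in striatal neurons, and Entpd1 is a gene of microglia and vessels.

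The mice were heterozygous APPswe/PS1dE9 males on a C57Bl6/J background, a transgenic model of brain amyloid deposition, or their WT littermates. Each genotype drank either H2O or MSX-3 at 0.3 g/L, a prodrug whose product blocks the receptor encoded by Adora2a. The animals were killed at 9 to 10 months of age, and the start of treatment is given as 3 months in the sample labels and as 4 months in the series description. The resulting 8 groups of tissue, genotype and agent had 6 one-colour arrays each, with both tissues taken from the same 24 mice. The design asks whether the genotype, the blockade of one adenosine receptor, or their combination, is accompanied by a change in the transcripts of the adenosine system.

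On 2 of the 48 arrays the scanner software found no spot grid, and these (cortex WT H2O mouse 310 and cortex WT MSX-3 mouse 298) were left out, so that both cortex WT groups had 5 arrays. On the 46 arrays used, 55.8 to 75.5% of spots were well above background, which limits what dim probes can show. The genotype labels fitted the signal of Prnp, whose sequences the transgenes carry. It was higher on all APP/PS1 arrays, with a gap to the WT arrays of 1.72 (cortex) and 1.40 (hippocampus) on the log2 scale. The App probe did not separate the genotypes, as the lowest APP/PS1 level minus the highest WT level was -0.70 (cortex) and -0.42 (hippocampus). Levels below are log2 intensities minus the 75th percentile of the array, so that a negative level is a probe dimmer than that percentile, and levels of different probes cannot be compared. Differences are on the log2 scale with limma's standard error (SE), 95% confidence interval (CI) and Benjamini-Hochberg adjusted p over all probes tested in the tissue. A gene was called when the adjusted p was under 0.05 and the change at least 1.5-fold, as judged on its brightest probe. The tissues are mixtures of cells, so fewer cells of a type and less RNA per cell cannot be told apart.

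In the cortex of H2O mice, 2 of the 10 genes were called, both higher in APP/PS1 mice, where 1.49% of all tested probes were called. In MSX-3 mice 1 of the 10 was called in the cortex, against 1.42% of probes. In the hippocampus 1 of the 10 was called on H2O, against 0.393% of probes, and 0 on MSX-3, against 0.312%. With both agents pooled, 2 of the 10 were called in the cortex (1.87% of probes) and 0 in the hippocampus (0.548%). The called genes were Adora3 in both tissues and Entpd1 in the cortex.

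Adora3 encodes a Gi-coupled receptor that is found on microglia and mast cells. Its cortical level in WT H2O mice was -2.68, -2.64, -2.61, -2.42 and -2.34. In APP/PS1 H2O mice it ran from -1.70 to -1.27, with a median of -1.57. All 6 APP/PS1 arrays lay above all 5 WT arrays, with a gap of 0.64 between the groups, and 2.84% of all probes measured on every array showed no overlap in this comparison. Adora3 was thus 2.004-fold higher in APP/PS1 cortex (difference 1.003, SE 0.10, CI 0.78 to 1.22, limma adjusted p = 0.000154).

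The cortex of MSX-3 mice gave nearly the same Adora3 values. WT mice had levels of -2.60, -2.56, -2.52, -2.36 and -2.34, and APP/PS1 mice ranged from -1.70 to -1.14 around a median of -1.57. The groups were again apart on every array, in a comparison where 3.02% of all probes showed no overlap. The difference was 0.98 (SE 0.11, CI 0.74 to 1.23, limma adjusted p = 0.000427). Over both agents the cortical difference was 0.99 (SE 0.07, limma adjusted p = 1.1e-09). The genotype difference on MSX-3 minus that on H2O was -0.02 for Adora3 in the cortex (CI -0.33 to 0.29, limma adjusted p = 0.981).

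In the hippocampus of H2O mice, Adora3 ran from -2.59 to -2.26 in the 6 WT mice (median -2.45) and from -1.90 to -1.55 in the 6 APP/PS1 mice (median -1.73). No WT array reached an APP/PS1 array, and 1.22% of all probes showed no overlap in this comparison. Adora3 was 1.63-fold higher (difference 0.70, SE 0.08, CI 0.52 to 0.88, limma adjusted p = 0.00151).

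On MSX-3, hippocampal Adora3 ran from -2.55 to -2.02 in WT mice (median -2.27) and from -2.39 to -1.71 in APP/PS1 mice (median -1.84). Of the 6 APP/PS1 arrays, 5 lay above all WT arrays and that of mouse 283 lay among the WT values at -2.39. The difference of 0.38 (SE 0.12, CI 0.11 to 0.65) did not pass the test (limma adjusted p = 0.693), and without mouse 283 it was 0.48 and again not called (limma adjusted p = 0.0952). The interaction in the hippocampus was -0.32 (CI -0.63 to -0.02, unadjusted p = 0.0393, limma adjusted p = 0.89), and -0.23 without mouse 283 (unadjusted p = 0.0757), so a smaller genotype difference under MSX-3 was not established. Over both agents hippocampal Adora3 was 1.45-fold higher (difference 0.54, SE 0.08, limma adjusted p = 0.000148), which is below the 1.5-fold limit. Without mouse 283 it was called at 0.59. In the interaction and pooled fits mouse 283 was the only mouse left out, chosen after its value was seen.

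**Figure D1:**
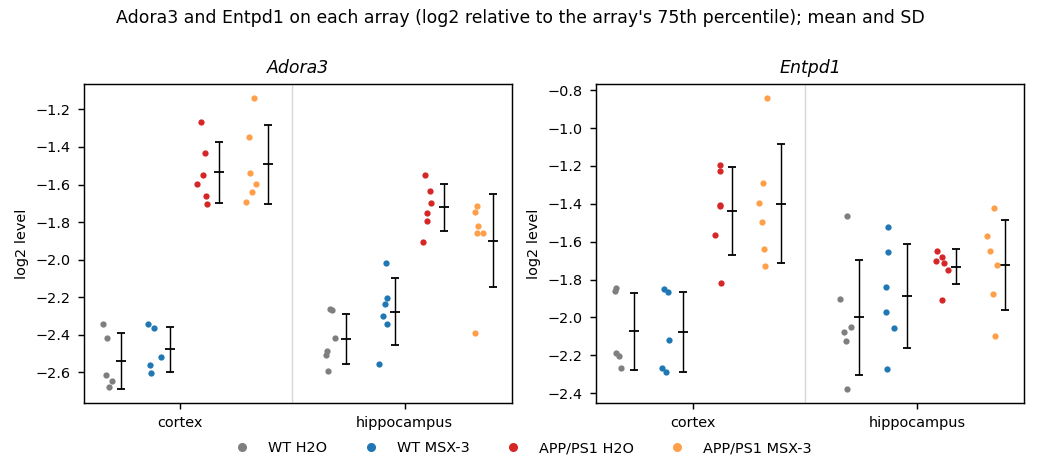
Level of Adora3 (left) and Entpd1 (right) on each array, as log2 intensity minus the array's 75th percentile, by tissue, genotype and agent; each point is 1 array and each bar the group mean with its SD. In the cortex all 12 APP/PS1 arrays lie above all 10 WT arrays for Adora3, and in the hippocampus 1 APP/PS1 MSX-3 array lies at -2.39, among the WT arrays.

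On H2O, the cortical genotype difference of Adora3 exceeded the hippocampal one by 0.30 (CI 0.04 to 0.56, unadjusted p = 0.0263), which did not pass adjustment (limma adjusted p = 0.973). In that test 0 of the 10 members and 0.238% of all probes were called. Between tissues, in APP/PS1 MSX-3 mice Adora3 was higher in the cortex by 0.41 (limma adjusted p = 0.0342, fold below 1.5). In WT mice on H2O the cortex minus hippocampus difference was -0.11 (CI -0.33 to 0.10, limma adjusted p = 0.449).

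APP/PS1 and WT arrays were spread unevenly over 2 scan days and 7 slides. Within scan day 1 the Adora3 difference was 1.02 in the cortex on H2O (5 against 2 arrays), 0.93 in the cortex on MSX-3 (6 against 3) and 0.73 in the hippocampus on H2O (6 against 2). Within scan day 2 the cortical value on H2O was 0.94 (1 against 3). With the slide as a fixed block, Adora3 kept its direction and lost its call on H2O in the cortex (0.79, limma adjusted p = 0.0777) and in the hippocampus (0.62, limma adjusted p = 0.506). Slide 5 was the only slide with both genotypes in the cortex on H2O and held 2 APP/PS1 arrays and 1 WT array, which differed by 0.79. Over both agents in the cortex, Adora3 (0.94) and Entpd1 (0.71) were both called with the slide block.

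Markers of several cell types differed between the genotypes as well. Of 10 microglia markers, 6 were called higher in APP/PS1 cortex on H2O and 6 on MSX-3, with a median difference of 0.88 and 0.90 beside medians of -0.03 over all tested probes, and their mean level was 1.83 to 2.13 on WT and 2.53 to 2.79 on APP/PS1 cortex arrays. In the hippocampus 1 of the 10 was called on either agent, and their mean level was 1.80 to 2.11 in WT and 2.14 to 2.53 in APP/PS1 mice. Of 9 measured markers of microglia around plaques, 8 were called in the cortex and 5 in the hippocampus, on either agent. In these comparisons 1.49% (H2O) and 1.42% (MSX-3) of all probes were called in the cortex, and 0.393% and 0.312% in the hippocampus. All 10 microglia markers were well above background on every array. The mean level of 9 astrocyte markers did not overlap in the cortex either, at 2.68 to 2.79 in WT and 3.004 to 3.20 in APP/PS1 mice on H2O and 2.62 to 2.82 and 2.98 to 3.35 on MSX-3, although Gfap, an intermediate filament of astrocytes, was the 1 marker of the 9 that was called there (2.70 and 2.80). Of 6 blood markers, 1 was called in each of the 4 genotype comparisons, Ptprc, which microglia also express. The mean level of 8 neuron markers was 4.65 to 4.76 in WT and 4.45 to 4.63 in APP/PS1 cortex on H2O, with 0 called. On MSX-3 the WT range in the cortex (4.45 to 4.75) enclosed that of APP/PS1 mice (4.53 to 4.68). Hippocampal mouse 283 had the lowest microglia level of its group (2.14, against 2.30 to 2.53 on the others) and a choroid plexus level of 1.92, against -3.22 to -1.77. Its striatum level was also the lowest (-0.68) and its meninges and fibroblast level the highest (-0.91). The part of these markers in the Adora3 and Entpd1 differences was not tested.

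Once group means were removed, Adora3 correlated with the mean microglia level at r = 0.33 over 22 cortex arrays and r = 0.62 over 24 hippocampus arrays, and Entpd1 at r = 0.45 and 0.40. Other lists of the 12 gave higher values. For Adora3 these were oligodendrocytes (r = 0.52), astrocytes (r = 0.47) and microglia around plaques (r = 0.38) in the cortex, and none in the hippocampus, where cortex neurons gave r = 0.57. For Entpd1 they were striatum (r = 0.69) and oligodendrocytes (r = 0.58) in the cortex, and astrocytes (r = 0.66), microglia around plaques (r = 0.54) and cortex neurons (r = 0.54) in the hippocampus. These are descriptions of arrays that share slides and scan days. By the same measure the genes most like Adora3 were Slc12a4 (r = 0.86), Phactr4 (r = 0.85) and Srsf9 (r = 0.84) in the cortex and Mras (r = 0.83), 1700001J11Rik (r = 0.81) and Ube2q2 (r = 0.80) in the hippocampus. These are the highest values among all kept probes with a gene name, set against no background. With group means kept they were 0.86, 0.59 and 0.42 in the cortex and 0.30, 0.19 and 0.39 in the hippocampus.

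Adora3 overlaps the gene Tmigd3 on the reference annotation, so signal of the pair may not be separable. The probe of Tmigd3 was well above background on 0 of 22 cortex arrays and on 11 of 24 hippocampus arrays, and its hippocampal genotype difference on H2O was 0.22 (limma adjusted p = 0.903).

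**Figure D2:**
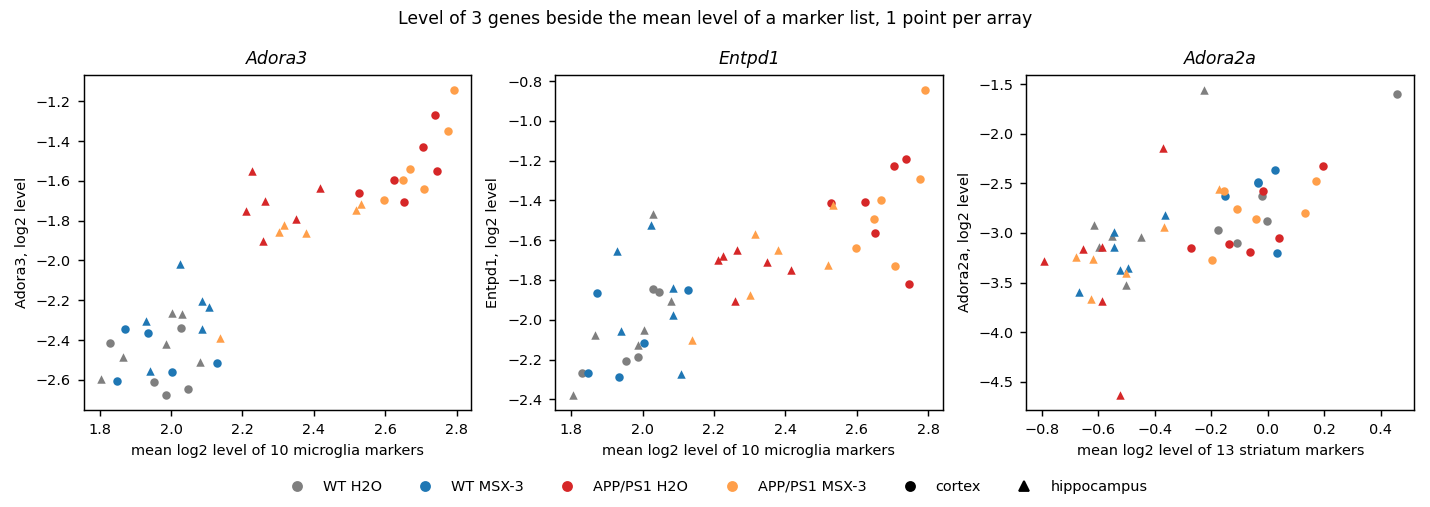
Level of Adora3, Entpd1 and Adora2a on each array (vertical axis, log2) against the mean log2 level of 10 microglia or 13 striatum markers on the same array (horizontal axis), 1 point per array. APP/PS1 cortex arrays stand at the upper right for Adora3 and Entpd1, with microglia levels of 2.53 to 2.79, and the highest Adora2a arrays of both tissues, at -1.60 and -1.55, come from WT mouse 71.

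Entpd1, the ectoenzyme that starts ATP breakdown, was called next to Adora3 in the cortex of H2O mice. In the cortex of WT H2O mice its level was -2.27, -2.21, -2.19, -1.86 and -1.85. In APP/PS1 H2O mice it ran from -1.82 to -1.19 with a median of -1.41. The groups did not overlap, as was the case for 2.84% of all probes, and the gap between them was only 0.03. The difference was 0.64 (1.55-fold, SE 0.13, CI 0.35 to 0.92, limma adjusted p = 0.0286).

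This call was close to its limits. It held in 4 of 11 fits that left out 1 mouse, where the difference was 0.59 to 0.71 and the adjusted p 0.00997 to 0.0942. It was lost without any one of the WT mice 258, 308 and 56 or of the APP/PS1 mice 255, 261, 323 and 81. Within scan day 1 Entpd1 differed by 0.78 and within scan day 2 by 0.56, and the slide block gave 0.58 (limma adjusted p = 0.166).

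On MSX-3, cortical Entpd1 was -2.29, -2.27, -2.12, -1.86 and -1.85 in WT mice. In APP/PS1 mice it ran from -1.73 to -0.84 (median -1.45), again without overlap, as was the case for 3.02% of all probes. The difference of 0.68 (SE 0.16, CI 0.33 to 1.03) missed the threshold (limma adjusted p = 0.064), and it passed when all groups were fitted together (limma adjusted p = 0.0109). Over both agents the difference was 0.66 (SE 0.10, CI 0.45 to 0.87, limma adjusted p = 0.000141), a called rise. The genotype differences on the 2 agents differed by 0.04 (CI -0.39 to 0.48, limma adjusted p = 0.968).

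A further Entpd1 probe, designed on another transcript, gave 0.58 on H2O (limma adjusted p = 0.126) and 0.51 over both agents (limma adjusted p = 0.0456, below 1.5-fold) in the cortex. It pointed the same way as the brighter probe without being called.

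In the hippocampus Entpd1 ran from -2.38 to -1.47 in WT H2O mice and from -1.91 to -1.65 in APP/PS1 H2O mice. The WT range enclosed the APP/PS1 range, and the difference of 0.27 (CI -0.01 to 0.54) was not called (limma adjusted p = 0.503). On MSX-3 the difference was 0.16 (CI -0.15 to 0.48). The cortical genotype difference on H2O exceeded the hippocampal one by 0.37 (CI -0.01 to 0.75, unadjusted p = 0.0581, limma adjusted p = 0.973). Genes most like Entpd1 were Gnptg (r = 0.89), Znrf1 (r = 0.88) and AU022252 (r = 0.87) in the cortex and Mkks, Plcd4 and Mettl3 (r = 0.88 for each) in the hippocampus.

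Adora3 and Entpd1 were the members that rose together, and their promoters are shown for this reason, as RefSeq gives them on GRCm38.p6, from 250 bases before to 50 bases after the annotated start. Capitals mark GAGGAA on either strand (TTCCTC on the other), the core of the motif bound by PU.1, a transcription factor of microglia and other myeloid cells. Adora3 has 1 annotated promoter and Entpd1 has 2, and the data do not tell which of the 2 was used.
Adora3, chr3:105904171-105904470, + strand: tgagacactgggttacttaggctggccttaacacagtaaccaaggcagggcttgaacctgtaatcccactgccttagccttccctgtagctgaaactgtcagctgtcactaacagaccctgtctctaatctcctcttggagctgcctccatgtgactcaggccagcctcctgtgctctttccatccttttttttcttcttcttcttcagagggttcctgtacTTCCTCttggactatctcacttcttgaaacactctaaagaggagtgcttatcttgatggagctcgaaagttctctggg
Entpd1, first promoter, chr19:40612116-40612415, + strand: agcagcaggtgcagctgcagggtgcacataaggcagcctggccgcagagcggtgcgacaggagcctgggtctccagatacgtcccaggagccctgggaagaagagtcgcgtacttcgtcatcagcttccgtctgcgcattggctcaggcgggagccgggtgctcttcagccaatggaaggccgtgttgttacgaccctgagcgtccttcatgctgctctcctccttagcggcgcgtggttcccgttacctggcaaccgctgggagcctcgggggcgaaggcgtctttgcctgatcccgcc
Entpd1, second promoter, chr19:40659520-40659819, + strand: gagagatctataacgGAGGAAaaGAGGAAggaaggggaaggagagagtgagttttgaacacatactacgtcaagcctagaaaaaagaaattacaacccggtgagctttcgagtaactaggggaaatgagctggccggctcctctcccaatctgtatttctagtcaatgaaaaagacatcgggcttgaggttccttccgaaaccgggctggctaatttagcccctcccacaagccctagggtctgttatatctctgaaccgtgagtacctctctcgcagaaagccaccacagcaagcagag

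The Adora3 promoter holds the motif 28 bases before the start, and the second Entpd1 promoter holds it at 235 and 227 bases before the start. The motif is common: 28.3% of 32851 promoters of this length have it, as do 5 of the 19 promoters of 9 members, those of Adora3, Entpd1, Slc29a1 and Slc29a2. TGACGTCA, the cAMP response element, is in 1.79% of promoters and in 0 of the 19, and TATAAA on either strand in 13.6% and in 0 of the 19. A match says only that these letters are present in the window.

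Adora2a, the receptor that MSX-3 targets, was called in 0 genotype and 0 agent comparisons. Its cortical level in WT H2O mice was -3.10, -2.97, -2.88, -2.62 and -1.60, and in APP/PS1 H2O mice it ran from -3.20 to -2.33 (median -3.08). In WT MSX-3 mice it was -3.20, -2.63, -2.50, -2.49 and -2.37, and in APP/PS1 MSX-3 mice -3.28 to -2.48 (median -2.78). The 4 cortex groups overlapped.

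The genotype difference of Adora2a in the cortex was -0.27 on H2O (CI -0.85 to 0.31) and -0.16 on MSX-3 (CI -0.53 to 0.22). MSX-3 minus H2O was 0.00 in WT cortex (CI -0.61 to 0.61) and 0.11 in APP/PS1 cortex (CI -0.27 to 0.49). These intervals are wide enough to hold changes of 1.5-fold in WT mice, so that an equal level is not shown.

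In the hippocampus Adora2a ran from -3.53 to -1.55 in WT H2O mice (median -3.03) and from -4.63 to -2.14 in APP/PS1 H2O mice (median -3.22). The difference was -0.47 (CI -1.33 to 0.38, limma adjusted p = 0.716). On MSX-3 the ranges were -3.60 to -2.82 in WT and -3.67 to -2.55 in APP/PS1 mice, with a difference of 0.04 (CI -0.37 to 0.44). MSX-3 minus H2O was -0.35 in WT (CI -0.94 to 0.25) and 0.16 in APP/PS1 hippocampus (CI -0.56 to 0.89).

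The spread of Adora2a within groups went with markers of the striatum, a region that adjoins both dissected tissues and is rich in this receptor. With group means removed, Adora2a correlated with the mean level of 13 striatum markers at r = 0.73 over 22 cortex arrays and r = 0.57 over 24 hippocampus arrays. In the cortex this was shared by Entpd1 (r = 0.69), Slc29a2 (r = 0.55) and Adora2b (r = 0.50), and the remaining members ranged from -0.29 to 0.25. In the hippocampus all other members ranged from -0.27 to 0.26. WT H2O mouse 71 had the highest Adora2a level in both tissues (-1.60 and -1.55) and the highest striatum level of its group in both tissues (0.46 and -0.23). The striatum level ran from -0.27 to 0.46 over cortex arrays and from -0.79 to -0.17 over hippocampus arrays, and 0 of the 13 markers was called in any genotype comparison. Hippocampal Adora2a also correlated with the choroid plexus markers (r = 0.48) and negatively with 8 neuron markers (r = -0.56), and the hippocampus array of mouse 71 had the highest choroid plexus (2.31) and meninges and fibroblast (-0.81) levels of its group. Without mouse 71 the genotype difference on H2O was -0.01 in the cortex and -0.21 in the hippocampus. The hippocampal difference also depends on APP/PS1 H2O mouse 325, the lowest of its group at -4.63, against a group median of -3.22. In that group 5 of 6 arrays were well above background for Adora2a. The part of striatum, choroid plexus and meninges in the Adora2a values was not tested.

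Genes most like Adora2a across cortex arrays were Rgs9 (r = 0.81), which is itself a marker of the striatum, Rasal3 (r = 0.71) and Lrrc10b (r = 0.71). In the hippocampus they were Pld1 (r = 0.75), Stat5b (r = 0.73) and Cast (r = 0.72). With group means kept, r was 0.75, 0.11 and 0.67 for the cortex genes and 0.69, 0.47 and 0.42 for the hippocampus genes. Adora2a was higher in the cortex than in the hippocampus of WT MSX-3 mice by 0.58 (CI 0.19 to 0.96, limma adjusted p = 0.0306, 1.49-fold). With the mouse as a block, which drops the hippocampus array of mouse 298, it was called at 0.66 (limma adjusted p = 0.006), and without a block but without mouse 298 it was also 0.66 (limma adjusted p = 0.0169). In the other 3 groups the tissue difference was 0.23 to 0.44 and was not called.

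Adora1, the widespread inhibitory receptor of neurons, kept a narrow range on its brightest probe. Group means were 3.74 to 3.92 in the cortex and 3.93 to 4.07 in the hippocampus, with SDs of 0.08 to 0.17. The genotype difference of Adora1 was -0.13 (CI -0.35 to 0.09) and 0.11 (CI -0.09 to 0.31) in the cortex on H2O and MSX-3, and 0.04 (CI -0.16 to 0.23) and -0.14 (CI -0.33 to 0.04) in the hippocampus. On this probe all 4 intervals lie within a 1.5-fold change. Between tissues, Adora1 was lower in the cortex of APP/PS1 H2O mice by 0.30 (limma adjusted p = 0.019, below 1.5-fold).

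A second Adora1 probe for the same transcript was lower in APP/PS1 cortex by 0.34 on H2O and 0.37 on MSX-3, without a call (limma adjusted p = 0.566 and 0.551). In the hippocampus the mean of this second probe was also lower in APP/PS1 mice, without a call. It was -1.08 (SD 0.10) against -0.85 (SD 0.34) in WT mice on H2O, and -1.07 (SD 0.21) against -0.87 (SD 0.44) on MSX-3. The brightest and the second probe therefore gave opposite signs on MSX-3 in the cortex, within their errors, and on H2O in the hippocampus. On its brightest probe Adora1 was most like Mrpl22, Syt2 and Jtb in the cortex (r = 0.91, 0.91 and 0.90) and Pdpk1, Asah1 and Rab5if in the hippocampus (r = 0.88, 0.87 and 0.87).

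A further Adora1 probe, for another transcript, was dim and differed between tissues. On WT H2O arrays it was well above background on 0 of 5 in the cortex and 4 of 6 in the hippocampus, on APP/PS1 H2O arrays on 0 of 6 and 6 of 6, and on APP/PS1 MSX-3 arrays on 0 of 6 and 5 of 6. The cortical level is thus only bounded, by the lowest signal among probes well above background on each array. Against that bound, or the probe's own signal where higher, the hippocampal mean of Adora1 on this probe was at least 1.60-fold higher in APP/PS1 H2O mice. The limma adjusted p of the fitted difference, which takes dim signals at face value, was 0.000116 in APP/PS1 H2O mice and 8.46e-05 in APP/PS1 MSX-3 mice. In APP/PS1 MSX-3 mice no fold is given, since only 5 of 6 hippocampus arrays measured the probe. In WT mice none is given either, since 2 of 6 hippocampus arrays on H2O did not measure it and 2 of 5 cortex arrays on MSX-3 did.

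Adora2b, the Gs-coupled receptor of lower affinity for adenosine, was dim but well above background on all 46 arrays. Its levels ran from -4.09 to -3.13 in the cortex and from -3.92 to -2.69 in the hippocampus, and every pair of groups within a tissue overlapped. The genotype difference of Adora2b was between -0.15 and 0.11 in the 4 comparisons, and the widest interval, in the hippocampus on H2O, was -0.59 to 0.38. Genes most like Adora2b were Tsen34 (r = 0.94), Tbk1 (r = 0.93) and Ccndbp1 (r = 0.93) in the cortex and Lsm14a (r = 0.80), Csnk1d (r = 0.79) and Wdr36 (r = 0.78) in the hippocampus.

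**Figure D3:**
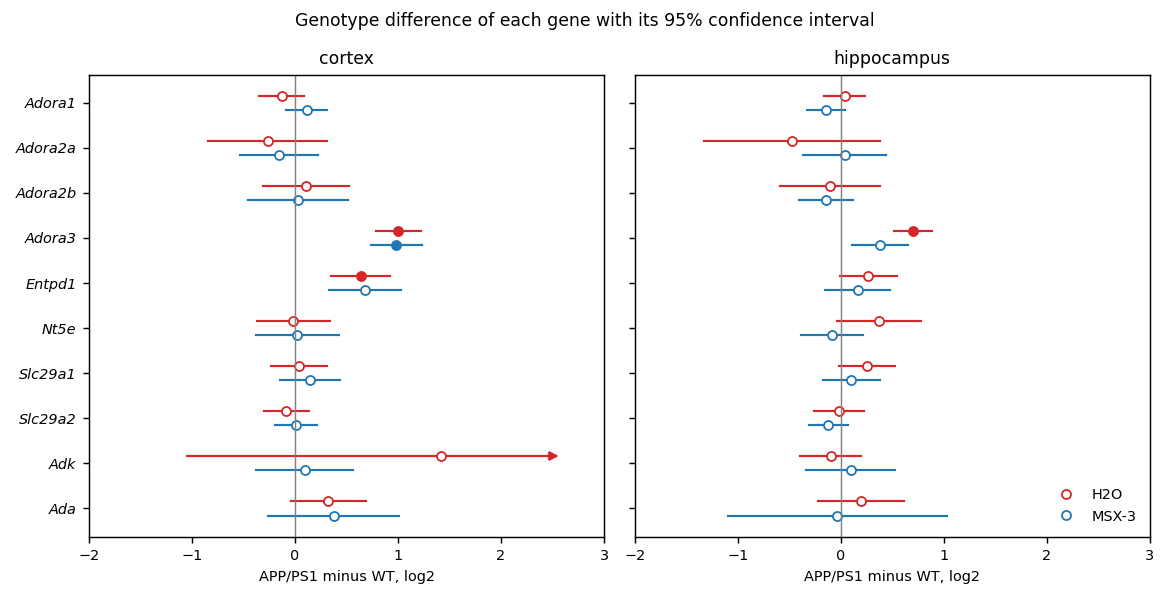
Difference between APP/PS1 and WT mice on the log2 scale for each gene, on H2O (red) and MSX-3 (blue), in the cortex (left) and hippocampus (right); lines are 95% confidence intervals, filled points are called genes, and an arrow marks an interval that runs past the axis. Adora3 is called in 3 of the 4 comparisons and Entpd1 in the cortex on H2O, and the wide cortical interval of Adk comes from a WT group with 1 array at -7.64.

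Nt5e, which makes adenosine from AMP, was called in 0 of the 4 genotype comparisons. In the cortex of H2O mice its levels were -3.50, -3.47, -3.25, -3.10 and -2.77 in WT and -3.64 to -2.90 in APP/PS1 mice, with a difference of -0.02 (CI -0.37 to 0.34). On MSX-3 the cortical difference was 0.02 (CI -0.38 to 0.42). In the hippocampus Nt5e differed by 0.37 on H2O (CI -0.04 to 0.78, limma adjusted p = 0.531) and by -0.09 on MSX-3 (CI -0.39 to 0.22), and the interaction was -0.46 (CI -0.96 to 0.04, limma adjusted p = 0.89).

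Nt5e levels varied with markers of tissue that borders the dissected regions. In the hippocampus, with group means removed, Nt5e correlated at r = 0.77 with 8 choroid plexus markers over 24 arrays, and in the cortex at r = 0.70 with 8 markers of meninges and fibroblasts over 22 arrays, in each tissue the highest value among the 12 lists. Negative values were reached with cortex neurons (r = -0.63) and astrocytes (r = -0.58) in the hippocampus. The choroid plexus level of hippocampus arrays ran from -3.86 to 2.31, with all 4 groups overlapping. The part of this tissue in the Nt5e values was not tested. Genes most like Nt5e were Anxa3 (r = 0.84), Ror2 (r = 0.83) and Il13ra1 (r = 0.82) in the cortex and Col9a3 (r = 0.87), Pih1d2 (r = 0.86) and Slc31a1 (r = 0.84) in the hippocampus. Nt5e was lower in the cortex than in the hippocampus of APP/PS1 H2O mice by 0.55 (limma adjusted p = 0.0218), just under 1.5-fold, and at 0.60 it was called with the scan day as a block (limma adjusted p = 0.0193).

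Slc29a1 and Slc29a2, the equilibrative nucleoside transporters ENT1 and ENT2, were measured on all arrays with small spreads. Slc29a1 differed between genotypes by 0.04 (CI -0.23 to 0.31) and 0.15 (CI -0.14 to 0.43) in the cortex on H2O and MSX-3. In the hippocampus Slc29a1 differed by 0.25 (CI -0.01 to 0.52, limma adjusted p = 0.515) and 0.10 (CI -0.18 to 0.38). For Slc29a2 the 4 genotype differences lay between -0.12 and 0.01, and all their intervals between -0.31 and 0.23, which is within a 1.5-fold change. In APP/PS1 MSX-3 mice Slc29a2 was higher in the cortex than in the hippocampus by 0.27 (limma adjusted p = 0.0346, below 1.5-fold).

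The genes most like Slc29a1 were Gpr37 (r = 0.82), Tmem88b (r = 0.82) and Dbndd2 (r = 0.82) in the cortex and Myt1 (r = 0.82), Cpne9 (r = 0.81) and Tbcel (r = 0.79) in the hippocampus. Those most like Slc29a2 were Creld1, Pgs1 and Ubac1 in the cortex (r = 0.94 for each) and Rnf40 (r = 0.93), Mkrn1 (r = 0.92) and Adprhl2 (r = 0.91) in the hippocampus.

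Adk, the kinase that returns adenosine to AMP, had 1 cortex array far below all others. In the cortex of WT H2O mice its levels were -1.14, -0.84, -0.44, -0.29 and, on the array of mouse 258, -7.64, where the spot was not well above background. On that array only 2 of 56502 probes lay more than 5 below the median of the other 4 arrays of the group, Adk and Slc9a5, and their spots stand near each other in the same column of the array, at rows 307 and 305. The cortical Adk difference on H2O was 1.42 (SE 1.13, CI -1.05 to 3.89), and without mouse 258 it was 0.03. Elsewhere the Adk genotype difference was 0.09 (cortex, MSX-3; CI -0.38 to 0.56), -0.10 (hippocampus, H2O; CI -0.40 to 0.20) and 0.09 (hippocampus, MSX-3; CI -0.34 to 0.52). In the hippocampus the genes most like Adk were Aagab, Ulk1 and Herc2 (r = 0.97 for each). In the cortex they were Twf2 (r = 0.98), Slc9a5 (r = 0.96) and 4932438A13Rik (r = 0.92), over arrays that include that of mouse 258.

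Ada, the deaminase, was dim and was well above background on 42 of 46 arrays, and its second probe on 3 of 46, which was not tested. Its cortical levels were -4.83, -4.78, -4.57, -4.55 and -4.51 in WT H2O mice and ran from -4.86 to -3.76 in APP/PS1 H2O mice, with a difference of 0.32 (CI -0.04 to 0.69, limma adjusted p = 0.482). On MSX-3 the cortical Ada difference was 0.38 (CI -0.26 to 1.01). In the hippocampus it was 0.20 (CI -0.22 to 0.61) on H2O and -0.04 (CI -1.10 to 1.03) on MSX-3, where WT mouse 282 at -1.50 stood far above the other 5 WT arrays (-4.85 to -4.12). Ada was lower in the cortex than in the hippocampus of WT H2O mice by 0.55 (CI -0.99 to -0.12), which did not pass (limma adjusted p = 0.0638). The genes most like Ada were Tacc3 (r = 0.87), St6galnac3 (r = 0.84) and Mak (r = 0.83) in the cortex and Gjc3 (r = 0.83), Gorab (r = 0.77) and Rnf145 (r = 0.77) in the hippocampus.

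**Figure D4:**
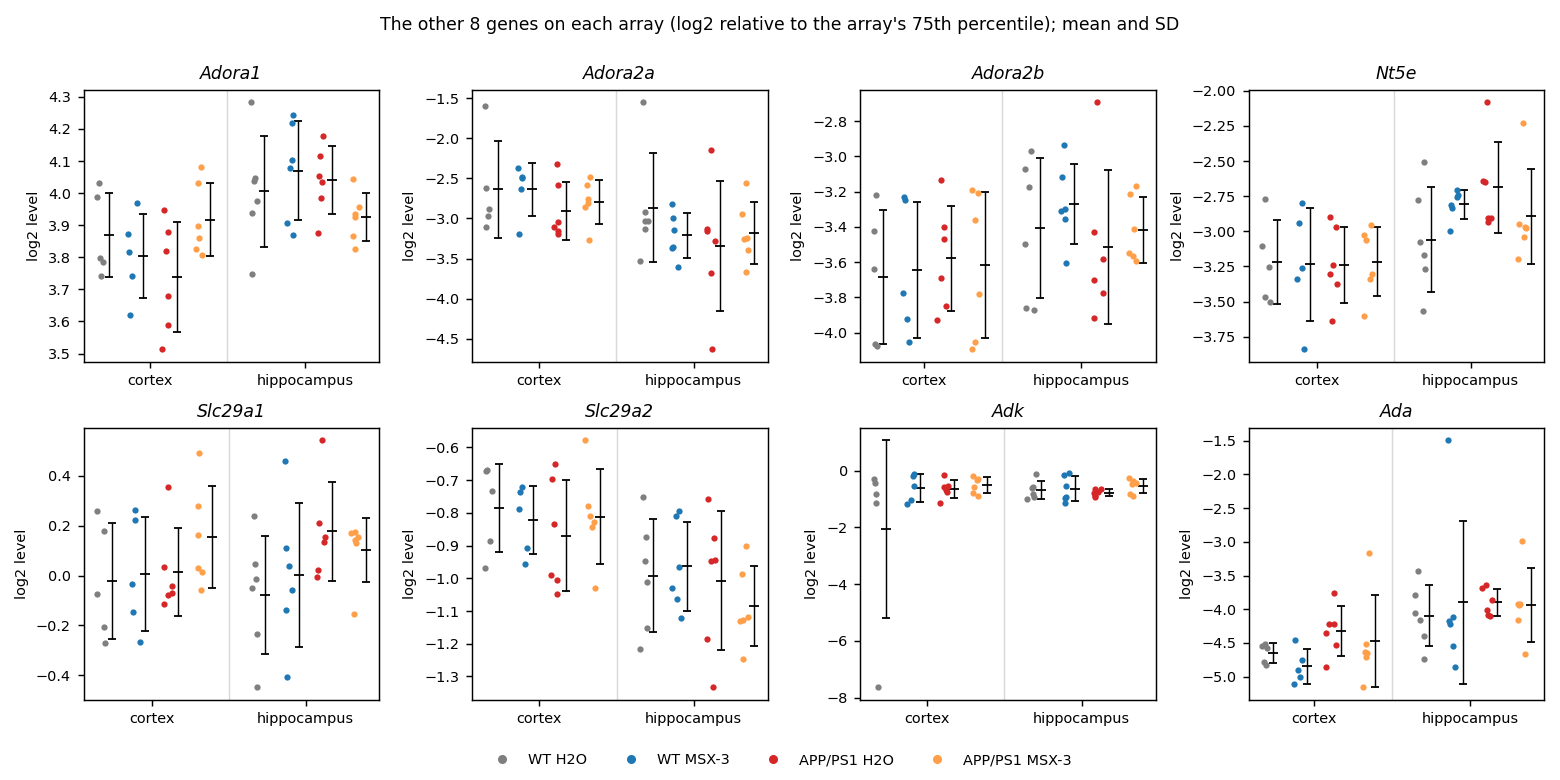
Level of the other 8 genes on each array (log2 intensity minus the array's 75th percentile), by tissue, genotype and agent, with the group mean and SD; each panel has its own axis. Genotype and agent groups overlap in every panel, and single arrays stand apart for Adora2a (-1.60 and -1.55, WT mouse 71), Adk (-7.64) and hippocampal Ada (-1.50).

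MSX-3 was accompanied by 0 called members in WT or APP/PS1 mice of either tissue. The same held for all probes, since 0% were called in each of the 4 comparisons by limma, and 0% with both genotypes pooled in either tissue. With array weights, 2958 probes but 0 members were called in WT cortex. At an unadjusted p under 0.05 there were 0 of the 10 members in each, and 3255 (WT cortex), 2164 (APP/PS1 cortex), 1895 (WT hippocampus) and 1469 (APP/PS1 hippocampus) of all probes. The MSX-3 difference of Adora3 was 0.06 (CI -0.16 to 0.29) in WT cortex and 0.04 (CI -0.20 to 0.28) in APP/PS1 cortex, and 0.15 (CI -0.07 to 0.36) and -0.18 (CI -0.42 to 0.07) in the hippocampus. For Entpd1 the 4 values lay between 0.00 and 0.11, with all intervals between -0.30 and 0.46.

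The interaction of genotype and MSX-3 was likewise called for 0 members and 0% of probes in each tissue by limma. At an unadjusted p under 0.05 stood 0 members in the cortex and 1 in the hippocampus (Adora3), beside 1756 and 1852 of all probes. For Adora1 the cortical interaction was 0.25 (CI -0.02 to 0.51, unadjusted p = 0.0725). The genotype comparisons and the MSX-3 comparisons share groups, so their values are not independent of each other.

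**Figure D5:**
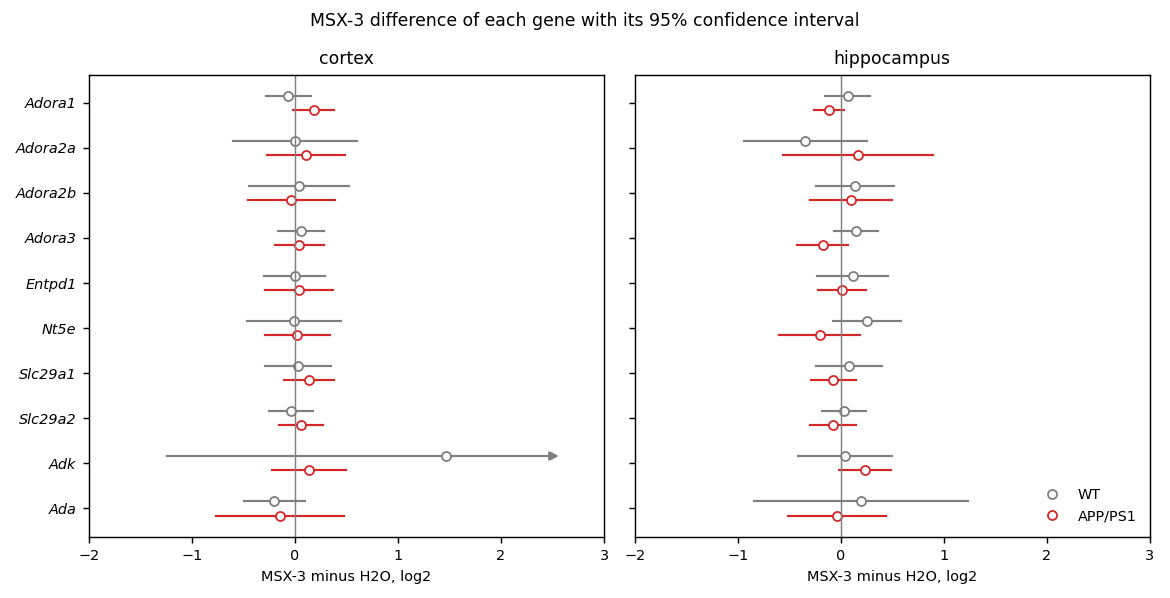
Difference between MSX-3 and H2O mice on the log2 scale for each gene, in WT (grey) and APP/PS1 mice (red), in the cortex (left) and hippocampus (right); lines are 95% confidence intervals, open points are genes that were not called, and an arrow marks an interval that runs past the axis. All points are open, and the intervals of Adora3 run from -0.42 at the lowest to 0.36 at the highest.

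Between tissues, 0 of the 10 members were called on their brightest probe, in groups where 15.8% (WT H2O), 16.5% (WT MSX-3), 15% (APP/PS1 H2O) and 17.4% (APP/PS1 MSX-3) of all probes were called. Only Adora3 in APP/PS1 MSX-3 mice had tissues that did not overlap, as did 17.5% of all probes in that group.

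Other genes of the pathway were looked at through 5 lists. Of 13 tested P2 receptors, which bind nucleotides rather than adenosine, 1 was called higher in APP/PS1 cortex on H2O and 2 on MSX-3. Of all probes, 1.35% (H2O) and 1.29% (MSX-3) were called higher in the same comparisons. P2ry6, a UDP receptor of microglia, was higher by 1.01 (SE 0.13, limma adjusted p = 0.00112) and 1.16 (SE 0.09, limma adjusted p = 1.38e-05), and P2ry13, an ADP receptor of microglia, by 0.77 on MSX-3 (limma adjusted p = 0.00176). The median of the P2 receptors was 0.14 on H2O and 0.27 on MSX-3, beside -0.03 over all probes in each. In the hippocampus 0 of 13 were called on either agent, where 0.393% (H2O) and 0.312% (MSX-3) of all probes were called.

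Of 26 G proteins, adenylyl cyclases and cAMP targets downstream of the receptors, 0 were called in APP/PS1 cortex on H2O and 1 on MSX-3, with medians of -0.08 and 0.01, where 1.49% and 1.42% of all probes were called. That gene was Adcy7, an adenylyl cyclase of immune cells, which was higher by 0.64 (limma adjusted p = 0.00245). Adcy7 was also the only gene of that list called in the hippocampus, at 0.59 on MSX-3 (limma adjusted p = 0.0456), where 0.312% of all probes were called. Among 7 tested enzymes of nucleotide breakdown outside cells, 1 was called in the cortex on H2O, Entpd1 itself. In the other genotype comparisons on either agent, 0 of 7 were called. Of 5 or 6 tested nucleoside transporters and 24 or 25 tested purine enzymes inside cells, 0 were called in the genotype comparisons of either tissue.

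Between tissues, 15 to 17.4% of all probes were called, and the called list genes with the smallest p were as follows. Slc29a4, the plasma membrane monoamine transporter, which also carries adenosine, was lower in the cortex of WT H2O mice by 13.1-fold (difference -3.71, SE 0.15, limma adjusted p = 2.37e-08), and the difference was -3.54, -3.18 and -3.20 in the other 3 groups. Ak5, an adenylate kinase of the brain, was lower in the cortex by 1.05 to 1.12 in the 4 groups, and Dpp4 was higher by 2.03 to 2.56. P2rx4, an ATP-gated channel, was higher in the cortex by 0.846 to 0.999 and Nt5c3, a nucleotidase inside cells, by 0.591 to 0.746, while the difference of Ak4, a mitochondrial adenylate kinase, was -1.07 to -0.77. Of the downstream list, 5 to 8 of 26 genes were called higher in the cortex and 0 lower, where 7.48 to 8.09% of all probes were called higher and 7.19 to 9.87% lower. Among them were Prkar1b (0.91 to 1.10) and Prkar2b (0.904 to 0.998), regulatory subunits of protein kinase A, Prkacb (0.756 to 0.908), a catalytic subunit, and Ppp1r1b (0.86 to 1.03), its target DARPP-32, which is also one of the striatum markers. Adcy7 was higher in the cortex by 0.838 to 0.910, and Pde4b, a cAMP phosphodiesterase, was called in 3 of the 4 groups (0.699 to 0.773).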

How the data were processed

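Total RNA of cortex and hippocampus was hybridized to one-colour Agilent mouse 8x60k arrays. The deposited intensities were made by the authors with Agilent Feature Extraction 10.7.3.1 (per the submitters' processing notes), with background subtracted and without normalization between arrays, and all 3022848 values of the series matrix equalled the scanner values at a relative tolerance of 1e-06. Here, 3671 control spots and outlier spots were left out, intensities were put on the log2 scale, each array's 75th percentile was subtracted and spots of a probe were averaged. Probes were named through RefSeq accessions (32989 of 56605), and each gene was represented by its brightest probe. Probes passed the filter on dim signal when at least 1 group of the tissue had 4 or more arrays well above background, and were tested with lmFit and eBayes of limma 3.58.1 under R 4.3.3, on the groups compared only, and the procedure was tested on simulated data.

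The 10 members, the 5 pathway lists and the 12 marker lists were chosen with earlier results of these data known. The text names the members, called genes of the pathway lists (at most 10 per comparison, by p) and, for each member, the 3 genes with the highest Pearson r in each tissue after removal of group means. Those r values are the highest over all kept probes with a gene name and were set against no background. Many were lower, some by far, with group means kept. Genes whose direction turned in an alternative are named as well. Mice are the replicates, and both tissues of a mouse carry its number in the labels, so the mouse was a block in an alternative fit of the tissue comparisons. Over the 22 mice with both arrays used, deviations of the 2 tissues from their group means correlated at a median r of 0.04 (-0.52 to 0.50), and at over 0.1 in 10 mice. Alternatives were normexp on median signals (offset 50), quantile normalization, the percentile taken over kept probes, other filters, an intensity trend, no minimum fold change and array weights. Further ones were slide or scan day as a block, the arrays without a grid, all groups in one fit, and leaving out mice. Each mouse was left out in turn only where a pair of groups was compared. In the interaction, pooled genotype and genotype by tissue fits, only mouse 283 (hippocampus) or 258 (the others) was left out. Those mice were chosen after seeing the data. The series matrix values, which equal the scanner values, were counted as a further alternative. Promoters were taken from RefSeq (GRCm38.p6) for 9 of the 10 members.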

Additional observations from a re-analysis of the deposited data

Results flagged for a closer look

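In 9 of 80 sets of a member in a group, a single array stood far from the others by Dixon's criterion, which chance alone meets in about 1 of 20 groups. Hippocampal Adora2a was -1.55 in WT H2O mouse 71, whose striatum marker level was -0.23 against -0.62 to -0.45 on the other arrays of the group. Its choroid plexus level (2.31 against -3.86 to 1.82) and its meninges and fibroblast level (-0.81 against -1.71 to -0.84) were also the highest. Hippocampal Adora3 was -2.39 in APP/PS1 MSX-3 mouse 283, whose microglia marker level was 2.14 against 2.30 to 2.53, and which also lay outside its group for striatum (-0.68), microglia around plaques (0.28), choroid plexus (1.92) and meninges and fibroblast markers (-0.91).

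Hippocampal Nt5e was -2.08 in APP/PS1 H2O mouse 259 and -2.23 in APP/PS1 MSX-3 mouse 283. Their choroid plexus marker levels were 2.30 and 1.92, against -3.56 to -2.15 and -3.22 to -1.77 on the other arrays of their groups. Mouse 259 was also highest for striatum (-0.37 against -0.79 to -0.52) and blood markers (-0.997 against -2.21 to -1.64). The part of these markers in the values was not tested.

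Cortical Adk was -7.64 in WT H2O mouse 258, on a spot that was not well above background. Ada was -3.16 for cortical tissue from APP/PS1 MSX-3 mouse 283 and -1.50 for hippocampal tissue from WT MSX-3 mouse 282. Cortical Slc29a1 was 0.36 in APP/PS1 H2O mouse 81, and hippocampal Slc29a1 was -0.16 in APP/PS1 MSX-3 mouse 319.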

How the results depend on the processing

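Over all alternatives, 3672 of 3800 values of the members kept their direction and side of the threshold or moved by less than the residual SD, 77 moved further, 29 became called and 22 lost their call, and 0 called member values turned their direction. Part of this agreement was fixed in advance. The series matrix values equal those of the main fit, and other filters, no minimum fold or an intensity trend leave the log2 difference itself unchanged. In the cortex on H2O, 1 member instead of 2 was called with normexp, without the filter and with array weights (Adora3 in each) and with the slide as a fixed block (1, Adk), and 0 with the arrays without a grid kept. Leaving out 1 mouse gave 1 to 2 (1 without WT mice 258, 308 or 56 or APP/PS1 mice 255, 261, 323 or 81), as Entpd1 was lost. In the cortex on MSX-3, 2 instead of 1 were called with an intensity trend, with array weights and with all groups in the fit, and 0 with the arrays without a grid, while a slide block could not be fitted. Over both agents in the cortex, 1 instead of 2 was called with normexp and 0 with the arrays without a grid. In the hippocampus on H2O, 0 instead of 1 were called with normexp (Adora3 0.56) and with the slide block, and over both agents 1 instead of 0 was called without a minimum fold and without mouse 283, an alternative chosen after seeing the data.

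Between tissues, where 0 members were called, leaving out 1 mouse gave 0 to 1 in each group. In WT H2O mice 1 was called with array weights and with the slide as a random or fixed block, and without mouse 318 (Ada, -0.64). In WT MSX-3 mice 1 was called with quantile normalization, no minimum fold, array weights and a replicate block for the mouse (1), and without mouse 282 or 298 (Adora2a in each), and 1 with a fit of all groups (Ada, -0.95). In APP/PS1 H2O mice 3 were called without a minimum fold and 1 with the scan day as a block or without mouse 255 (Nt5e). In APP/PS1 MSX-3 mice 2 were called without a minimum fold, and 1 without mouse 283 (Ada, -0.61). The block changed no other call of a member. With the arrays without a grid kept, the tissue differences of P2ry6 (0.27), Prkacb (-0.21) and Prkar1b (-0.093) in WT H2O mice and of P2ry1 (0.10), Prkacb (-0.22) and Prkar1b (-0.034) in WT MSX-3 mice turned their direction, on arrays with 11.4 to 15.8% of spots well above background. For the other changes the cause was not tested.

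Counts over all probes moved by over 1.5 times as follows. With normexp, cortical genotype calls fell from 561 to 342 on H2O and from 704 to 365 over both agents, hippocampal ones from 150 to 93 on H2O, from 119 to 56 on MSX-3 and from 209 to 87 over both, and tissue calls from 5875 to 6779 down to 3355 to 3909. With the arrays without a grid, cortical genotype calls were 73, 33 and 155 (H2O, MSX-3, both), tissue calls in WT mice 2014 (H2O) and 1578 (MSX-3), and calls of the genotype difference between tissues 3 instead of 93. The last were 55 without the filter, 58 with quantile normalization, 43 with the replicate block and 146 with a random slide block. With array weights, calls were 1044 in the cortex on H2O, 2958 instead of 0 for MSX-3 in WT cortex and 1 instead of 0 for pooled MSX-3 in the cortex. Without a minimum fold, calls over both agents were 1683 (cortex) and 438 (hippocampus), and tissue calls 10160 to 12088. Without the filter, cortical calls over both agents were 1287. A fixed slide block gave 2 (H2O) and 45 (MSX-3) in the hippocampus and 3901 between tissues in WT MSX-3 mice, and the scan day 62 in the hippocampus on H2O. Without mouse 281, 1 probe was called for MSX-3 in APP/PS1 hippocampus.

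With 5 or 6 arrays a group, some intervals of dim or variable members (among them Adora2a, Ada, Adora2b, Nt5e and Adk) hold changes of 1.5-fold. A gene that was not called is not shown to be equal. In the cortex on H2O, slide 5 alone held both genotypes, so the slide block rests on its 3 arrays. It holds the low Adk array of mouse 258, and Adk was 6.69 there.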
